A study of Mus musculus with 9 samples.

Results

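Mitochondrial fatty acid oxidation was followed in mouse liver messenger RNA through 32 genes chosen by name: the carnitine shuttle, the acyl-CoA dehydrogenases, the trifunctional protein, auxiliary enzymes for unsaturated fatty acids, the electron transfer flavoproteins and the medium-chain acyl-CoA synthetases. All 32 were found among the 54532 genes of the deposited table, and 30 of them were among the 13737 genes expressed highly enough to be tested. The 9 libraries came from livers of wild-type male C57BL/6J mice in 3 groups of 3. The 326E group ate CDAA-HFD, a choline-deficient, amino acid-defined, high-fat diet that produces steatohepatitis and fibrosis in mice, and received the enedioic acid analogue 326E at 30 mg/kg for 6 weeks. The vehicle group ate CDAA-HFD and the chow group normal chow, and both received vehicle. The targets of 326E that the series gives in its title are ACLY, the enzyme that makes cytosolic acetyl-CoA from citrate, and PPARα. Library titles begin with MCD in every group, and the diet given here is that of the protocol. Nothing in the labels ties libraries to separate animals, so p-values measure only the spread between these samples, which may be technical.

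In beta-oxidation, a long-chain acyl group is moved onto carnitine, carried into the mitochondrial matrix and returned to coenzyme A, and is then shortened by repeated rounds of dehydrogenation, hydration, a second dehydrogenation and thiolysis. Electrons from the acyl-CoA dehydrogenases pass through the electron transfer flavoprotein to its ubiquinone reductase. In liver the pathway feeds ketone body synthesis during fasting, and many of its genes are known targets of the lipid-activated nuclear receptor PPARα. Several dehydrogenases of the same protein family serve branched-chain amino acid breakdown instead.

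Assigned reads ranged over 13275888 to 17058316 per library. Values are FPKM, reads scaled by gene length and by a library size, and a log2 difference is a difference of log2(FPKM+1) with its standard error after ±. Genes whose limma p, adjusted by Benjamini-Hochberg over all tested genes, was under 0.05 are said to be called, to rise or to fall. Hepatocyte markers were abundant in every library, with 11 markers summing to 31202 to 40550.2 FPKM in 326E, 31052 to 47463 FPKM in vehicle and 50495 to 55590.1 FPKM in chow livers. In the deposited values 326E replicate 3 was the highest of its group for 29 of 30 tested members, and vehicle replicate 2 the lowest for 23. The library sizes behind the FPKM were 1.15, 1.12 and 1.01 times the assigned reads in 326E replicates 1 to 3. In vehicle replicates 1 to 3 they were 1.13, 1.19 and 1.04 times the assigned reads. The order within a group depends on that scaling, and its share over all tested genes is not given.

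In 326E against vehicle livers, 15 of the 30 tested members rose and 0 fell. Among all tested genes 4.96% were called higher and 6.50% lower in that comparison. By limma, 21 members were higher and 0 lower at an unadjusted p under 0.05. Voom on whole reads called 15 members higher and 0 lower, and 1860 of all tested genes, 42.7% of them higher. Shares of all tested genes at an unadjusted p are not given, here or for the lists below. The median difference over the members was 0.53, against -0.02 over all tested genes. For 20 members every 326E library was above every vehicle library, and for 0 below, where 14.8% and 18.2% of all tested genes separated that way. Of the 30 tested members, 29 had a difference above 0, and the differences ran from -0.03 (Cpt1a) to 1.74 (Crat). Auxiliary enzymes, trifunctional protein subunits, Cpt2, Crat and Etfdh rose, while Cpt1a and the medium-chain synthetases were not called. Whether members differed from each other was not tested. Summed over the 32 members, levels were 2298, 2418 and 2863 FPKM in 326E livers, 1845, 1499.8 and 1734 FPKM in vehicle livers and 2265, 2079.8 and 2305 FPKM in chow livers. The members took 0.880 ± 0.038% of assigned reads in 326E, 0.596 ± 0.043% in vehicle and 0.569 ± 0.029% in chow livers (SD, n = 3 each).

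**Figure D1:**
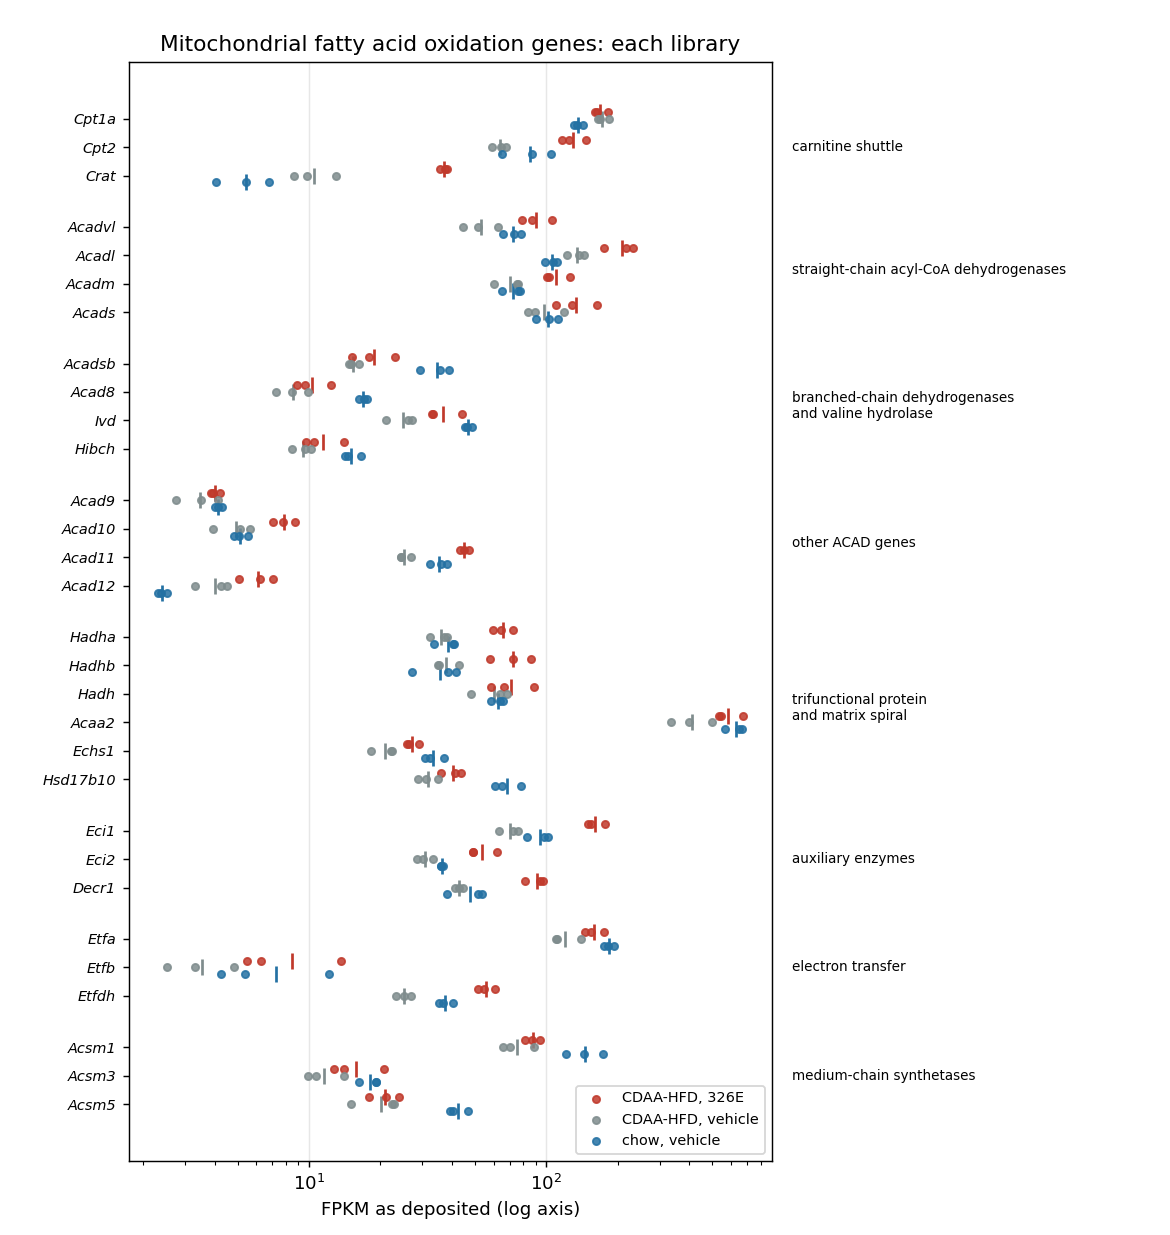
FPKM of the 30 tested members in each library on a log axis, grouped by role, with 326E libraries in red, vehicle in grey and chow in blue, and a tick at each group mean. The 326E libraries lie above all vehicle libraries for 20 members, while those of Cpt1a overlap.

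**Figure D2:**
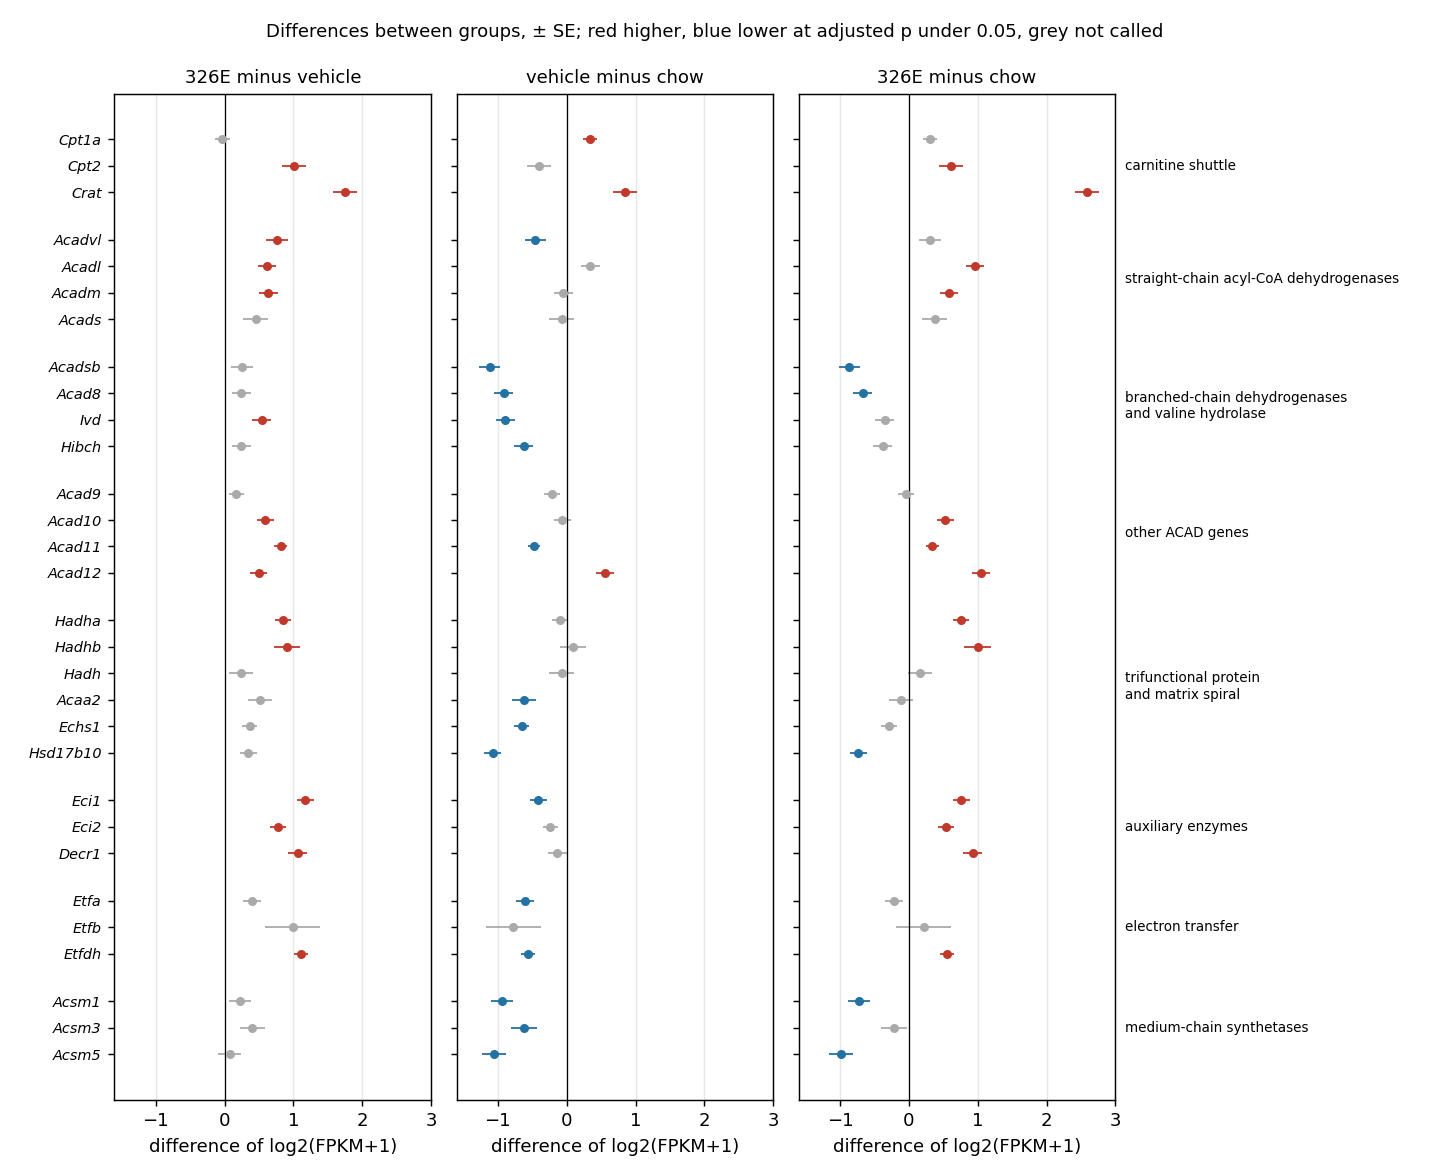
Differences of log2(FPKM+1) for the 30 tested members in the 3 comparisons, with their standard errors, red where called higher, blue where called lower and grey where not called. In 326E minus vehicle 15 members are red and 0 blue, and in vehicle minus chow 3 are red and 15 blue.

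In the carnitine shuttle, Cpt2 and Crat rose with 326E and Cpt1a was not called. Cpt1a encodes the liver carnitine palmitoyltransferase of the outer membrane, the step that malonyl-CoA inhibits. Its level was 160.4, 164 and 182 FPKM in 326E livers, 184, 164 and 168 FPKM in vehicle livers and 135, 131 and 142 FPKM in chow livers. The 326E and vehicle libraries overlapped, and both diet groups lay above chow. The 326E minus vehicle difference was -0.03 ± 0.10, with a 95% interval from -0.26 to 0.20 (adjusted p = 0.873). Cpt2, the inner-membrane enzyme that returns the acyl group to coenzyme A, stood at 116, 125 and 147 FPKM in 326E livers, against 67.4, 64.2 and 59.2 FPKM in vehicle livers, and at 87.2, 65.1 and 104 FPKM in chow livers. It rose with 326E by 1.01 ± 0.17 (adjusted p = 0.00827), without overlap with vehicle.

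Crat had the largest rise of the members under 326E. It encodes carnitine acetyltransferase, which exchanges acetyl and other short acyl groups between coenzyme A and carnitine. Crat levels were 37.3, 35.5 and 38.3 FPKM in 326E livers, against 13.0, 9.79 and 8.68 FPKM in vehicle livers, and 5.45, 4.07 and 6.76 FPKM in chow livers. All 3 groups were separate, with the highest values in 326E and the lowest in chow livers. The difference was 1.74 ± 0.17 between 326E and vehicle (adjusted p = 0.00127), a mean 3.53 times as high, and 0.84 ± 0.17 between vehicle and chow (adjusted p = 0.00446). Exons of genes on the opposite strand cover 8.72% of its exon bases.

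Cpt1b, the muscle isoform of Cpt1a, was not tested. It was covered by 9, 4 and 1 reads in 326E libraries, 3, 1 and 0 reads in vehicle libraries and 0 in each chow library. At this depth no difference could be read for it. Annotated exons of another gene on the same strand, Gm44502, cover 81.4% of its exon bases, and reads that fit both genes may not have been assigned. Of 10 muscle markers, 3 (Mb, Myh4 and Myh7) were at 0 in every library. The sum of the list, mostly Des, which stellate cells also express, was 1.81 to 3.89 FPKM in 326E, 2.21 to 4.43 FPKM in vehicle and 0.617 to 1.74 FPKM in chow livers.

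Among the straight-chain acyl-CoA dehydrogenases, 3 of 4 rose with 326E. Acadvl, the very-long-chain enzyme of the inner membrane, had 78.6, 86.6 and 106 FPKM in 326E livers, 62.7, 44.5 and 51.6 FPKM in vehicle livers and 73.2, 65.8 and 78 FPKM in chow livers. It rose by 0.76 ± 0.15 (adjusted p = 0.0171) to levels above every vehicle and chow library. Its 326E minus chow difference of 0.31 ± 0.15 was not called (adjusted p = 0.175). Exons of Dvl2 on the opposite strand cover 42.9% of its exon bases, and the strand setting of the counting is not given in the sources used here.

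Acadl, the long-chain dehydrogenase, stood at 174, 216 and 232 FPKM in 326E livers, at 144, 122 and 137 FPKM in vehicle livers and at 107, 98.7 and 111 FPKM in chow livers. The 3 groups did not overlap, and the 326E minus vehicle difference was 0.62 ± 0.13 (adjusted p = 0.0203). Acadm, the medium-chain dehydrogenase, had 101, 103 and 125 FPKM in 326E livers, against 75.9, 60.1 and 74.9 FPKM in vehicle livers, and 75.8, 64.9 and 77.3 FPKM in chow livers. It rose by 0.63 ± 0.14 (adjusted p = 0.0205), while vehicle and chow libraries overlapped. Acads, the short-chain dehydrogenase, had 109, 128 and 164 FPKM in 326E livers, 118, 83.8 and 89.9 FPKM in vehicle livers and 103, 90.4 and 112 FPKM in chow livers. Its groups overlapped and it was not called (0.45 ± 0.18, adjusted p = 0.141).

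Hadha and Hadhb encode the subunits of the trifunctional protein, which carries out the last 3 steps of the spiral on long chains at the inner membrane. Hadha had 59.8, 64.2 and 72.5 FPKM in 326E livers, against 37.0, 32.3 and 38.3 FPKM in vehicle livers, and 40.9, 33.7 and 40.5 FPKM in chow livers. Hadhb had 58.0, 72.3 and 86.2 FPKM in 326E livers, against 42.7, 34.8 and 35.4 FPKM in vehicle livers, and 38.5, 27.1 and 41.6 FPKM in chow livers. Both rose with 326E, Hadha by 0.85 ± 0.12 (adjusted p = 0.00445) and Hadhb by 0.91 ± 0.19 (adjusted p = 0.0189). The ratio of their FPKM, Hadhb over Hadha, was 1.09 ± 0.11 in 326E, 1.05 ± 0.12 in vehicle and 0.924 ± 0.112 in chow livers (SD, n = 3 each), and the ranges of 326E and vehicle overlapped.

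These genes lie head to head on chromosome 5, Hadha on the minus strand (30118304 to 30155162, mm10) and Hadhb on the plus strand (30155248 to 30184593), with 85 bases between them. The sequence between their annotated starts is shown because the genes that moved together are transcribed away from it. It is printed 5′ to 3′ on the plus strand, from RefSeq's promoter table on GRCm38.p6, at chr5:30155163-30155247, and capitals mark the letters GGGCGG, the core of a GC box.
Hadha to Hadhb: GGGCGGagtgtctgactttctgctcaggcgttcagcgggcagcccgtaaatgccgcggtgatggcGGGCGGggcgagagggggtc
This stretch is 69.4% G or C and holds GGGCGG at 2 places. The same letters, on either strand, were in 35.7% of all 32851 promoter windows of 300 bases and in 17 of 28 windows of the members, 60.7%. The windows of Hadha and Hadhb share 228 bases, the printed stretch among them, so its matches count for both windows.

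The other enzymes of the matrix spiral had 326E minus vehicle differences from 0.24 to 0.51, and none of these 4 was called by limma or voom, while Echs1 passed with quantile normalization (0.34, adjusted p = 0.0497). At an unadjusted p under 0.05, 5 of the 6 genes of this role were higher, Hadha and Hadhb included. Acaa2, the matrix thiolase for medium chains and the most abundant member, stood at 535, 542 and 673 FPKM in 326E livers, against 498, 335 and 399 FPKM in vehicle livers, and at 665, 566 and 650 FPKM in chow livers. Every 326E library was above every vehicle library, yet the difference of 0.51 ± 0.17 did not pass (adjusted p = 0.0898). Echs1, the short-chain enoyl-CoA hydratase, averaged 27.1 ± 1.81 FPKM in 326E, 20.9 ± 2.27 FPKM in vehicle and 33.4 ± 3.13 FPKM in chow livers (SD, n = 3 each). Hsd17b10, which acts in isoleucine breakdown and is also a subunit of mitochondrial RNase P, averaged 40.4 ± 3.94 FPKM in 326E, 31.6 ± 3.0 FPKM in vehicle and 68.0 ± 9.16 FPKM in chow livers. Hadh, the 3-hydroxyacyl-CoA dehydrogenase of medium and short chains, overlapped between all groups, with means of 71.2, 60.1 and 62.6 FPKM in 326E, vehicle and chow livers.

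All 3 auxiliary enzymes, which let unsaturated fatty acids enter the spiral, rose with 326E. Decr1, the 2,4-dienoyl-CoA reductase, had 81.6, 94.0 and 97.1 FPKM in 326E livers, against 42.6, 41.3 and 44.6 FPKM in vehicle livers, and 51.6, 38.1 and 53.5 FPKM in chow livers. It rose by 1.06 ± 0.14 (adjusted p = 0.00325). Eci1, a delta-isomerase of enoyl-CoA, had 154, 149 and 176 FPKM in 326E livers, against 72.0, 63.3 and 75.5 FPKM in vehicle livers, and 97.3, 82.8 and 102 FPKM in chow livers. It rose by 1.17 ± 0.12 (adjusted p = 0.00151). Eci2, a second delta-isomerase that is also found in peroxisomes, had 49.2, 49.1 and 61.9 FPKM in 326E livers, against 28.4, 30.3 and 33.4 FPKM in vehicle livers, and 36.0, 36.1 and 36.7 FPKM in chow livers. It rose by 0.77 ± 0.11 (adjusted p = 0.00508). For each of the 3 genes every 326E library was above every vehicle and every chow library.

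Of the electron transfer genes, only Etfdh, the ubiquinone oxidoreductase, was called with 326E. Its level was 54.4, 51.5 and 60.6 FPKM in 326E livers, against 25.2, 23.2 and 27 FPKM in vehicle livers, and 36.7, 35.1 and 40.4 FPKM in chow livers. The groups were separate, with chow between vehicle and 326E, and the rise was 1.11 ± 0.10 (adjusted p = 0.00102). Etfa, the alpha subunit of the flavoprotein, averaged 158 ± 15.3 FPKM in 326E, 120.2 ± 17.0 FPKM in vehicle and 183 ± 8.67 FPKM in chow livers (SD, n = 3 each). Its 326E minus vehicle difference of 0.40 ± 0.13 did not pass (adjusted p = 0.0789), but passed when scaled to total assigned reads, with quantile normalization and without vehicle replicate 3 (0.36, 0.36 and 0.51, adjusted p = 0.0402, 0.036 and 0.0482).

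Etfb, the beta subunit, was listed far below its partner. It had 13.7, 6.28 and 5.46 FPKM in 326E livers, 2.52, 3.30 and 4.84 FPKM in vehicle livers and 4.26, 12.1 and 5.40 FPKM in chow livers, from 48 to 281 reads. The spread within groups was wide, with 326E replicate 1 and chow replicate 2 far above the rest, and the difference of 0.99 ± 0.40 did not pass (adjusted p = 0.141). Same-strand exons of Gm45233, a gene model that shares the locus, and of Mir7051 cover 58.2% of the exon bases of Etfb. Reads that fit more than 1 gene may not have been assigned, so its level relative to Etfa cannot be read from these values.

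The ACAD genes outside the classical spiral were low apart from Acad11, and 3 of 4 rose with 326E. Acad11, a dehydrogenase that acts on 4-hydroxy acids, had 43.4, 44.7 and 47.2 FPKM in 326E livers, against 24.4, 24.4 and 26.8 FPKM in vehicle livers, and 35.8, 32.4 and 38.0 FPKM in chow livers. It rose by 0.82 ± 0.09 (adjusted p = 0.00203). Acad10 had 7.07, 7.77 and 8.73 FPKM in 326E livers, against 5.12, 3.96 and 5.65 FPKM in vehicle livers, and 5.52, 4.83 and 5.05 FPKM in chow livers. It rose by 0.59 ± 0.12 (adjusted p = 0.0192). Acad12, which lies 2087 bases from Acad10 on the same strand of chromosome 5, had 5.06, 6.21 and 7.02 FPKM in 326E livers, against 3.32, 4.27 and 4.51 FPKM in vehicle livers, and 2.39, 2.31 and 2.51 FPKM in chow livers. Its groups were separate and it rose by 0.49 ± 0.13 (adjusted p = 0.0403). Acad9, better known as an assembly factor of respiratory complex I, was not called in any comparison, at 4.0 ± 0.18 FPKM in 326E, 3.48 ± 0.70 FPKM in vehicle and 4.15 ± 0.15 FPKM in chow livers (SD, n = 3 each).

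Branched-chain enzymes were mostly not called with 326E. Ivd, the isovaleryl-CoA dehydrogenase of leucine breakdown, had 33.3, 32.9 and 44.1 FPKM in 326E livers, against 27.3, 21.1 and 26.2 FPKM in vehicle livers, and 46.1, 45.4 and 48.6 FPKM in chow livers. It rose by 0.54 ± 0.14 (adjusted p = 0.0377) and every 326E library remained below every chow library. Acadsb of isoleucine breakdown, Acad8 of valine breakdown and Hibch, the valine-pathway hydrolase, had differences of 0.24 to 0.25 with overlapping groups (adjusted p = 0.279 to 0.321). The medium-chain synthetases, which activate medium-chain and aromatic acids in the matrix, gave 0 called of 3 tested by limma and voom, and 0 at an unadjusted p under 0.05. Acsm1 averaged 87.4 ± 6.28 FPKM in 326E, 74.9 ± 11.9 FPKM in vehicle and 146 ± 26.3 FPKM in chow livers (SD, n = 3 each). Acsm3 averaged 15.8 ± 4.23, 11.5 ± 2.20 and 18.1 ± 1.69 FPKM in 326E, vehicle and chow livers, and 39.7% of its exon bases are covered by Eri2 on the opposite strand. Acsm5 averaged 20.9 ± 2.96, 20.1 ± 4.40 and 42.3 ± 4.03 FPKM in the same groups.

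Acsm2 was not tested. It had 37, 13 and 12 reads in 326E libraries, 3, 9 and 0 reads in vehicle libraries and 48, 37 and 27 reads in chow libraries. In group means chow was highest and vehicle lowest, as for Acsm1, Acsm3 and Acsm5, its neighbours on the plus strand of chromosome 7. Between 326E and vehicle, the libraries of Acsm1, Acsm3 and Acsm5 overlapped and these genes were not called. From Acsm5 to Acsm2 there are 8788 bases, from Acsm2 to Acsm1 6335 bases and from Acsm1 to Acsm3 98407 bases.

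**Figure D3:**
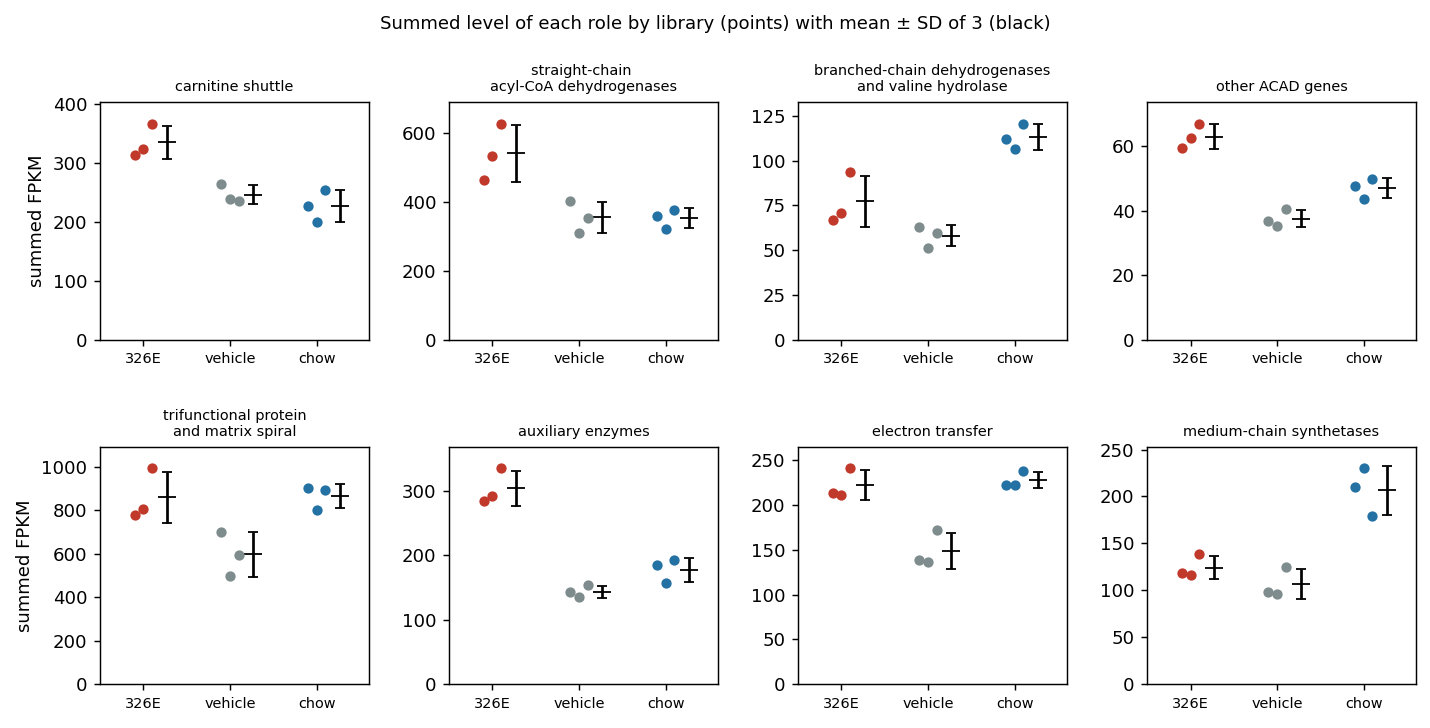
Summed FPKM of the members of each role in each library (points) with the mean and SD of 3 libraries (black), axes from 0. Auxiliary enzymes summed to 285, 292 and 335 FPKM in 326E livers and to 135 to 154 FPKM in vehicle livers, and branched-chain enzymes and medium-chain synthetases were highest in chow livers.

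Leaving out single libraries split the 15 calls for 326E against vehicle. In each of the 9 fits without 1 library, 8 members were called: Cpt2, Crat, Acad11, Hadha, Eci1, Eci2, Decr1 and Etfdh. The others kept their direction and lost the call in some fits. Without 326E replicate 2 or 3, 8 members were called. Acadm (0.68 and 0.53, adjusted p = 0.0557 and 0.0664) and Acad10 (0.60 and 0.52, adjusted p = 0.0637 and 0.0682) lost the call without 326E replicates 2 and 3. Acadvl, Acadl and Hadhb also lost it without vehicle replicate 3 (0.75, 0.63 and 0.87, adjusted p = 0.051, 0.0521 and 0.0598), and Acadl without vehicle replicate 2 (0.55, adjusted p = 0.0533). Without 326E replicates 2 and 3, these 3 had differences of 0.78 and 0.64 (Acadvl), 0.58 and 0.53 (Acadl) and 0.90 and 0.77 (Hadhb). Ivd and Acad12 each remained called in only 1 of the 9 fits, with differences of 0.41 to 0.61 and 0.39 to 0.60 and adjusted p up to 0.0995 and 0.126.

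In vehicle against chow livers, 3 members rose and 15 fell, where 20.8% of all tested genes were called higher and 20.8% lower. The median over the members was -0.43, against -0.04 over all tested genes. The risers were Cpt1a (0.34 ± 0.10, adjusted p = 0.0265), Crat and Acad12 (0.56 ± 0.13, adjusted p = 0.00776). By role, 4 of 4 branched-chain enzymes, 3 of 3 tested medium-chain synthetases and 2 of 3 electron transfer genes (Etfa and Etfdh) fell. In 4 members every vehicle library was above every chow library and in 16 below, where 24.9% and 27% of all tested genes separated that way. Acadsb fell by 1.12 ± 0.15 (adjusted p = 0.000525), to 15.3 ± 0.84 FPKM in vehicle livers, against 34.6 ± 4.75 FPKM in chow livers (SD, n = 3 each). Hsd17b10 fell by 1.08 ± 0.13 (adjusted p = 0.000231), Acsm5 by 1.06 ± 0.17 (adjusted p = 0.00122) and Acsm1 by 0.95 ± 0.16 (adjusted p = 0.00151). Acad8, Ivd and Hibch fell by 0.91 ± 0.14, 0.89 ± 0.14 and 0.63 ± 0.14 (adjusted p = 0.000821, 0.00101 and 0.00604). Among the straight-chain, matrix and auxiliary enzymes Acadvl, Acaa2, Echs1 and Eci1 also fell, by 0.45 ± 0.15, 0.62 ± 0.17, 0.66 ± 0.11 and 0.41 ± 0.12 (adjusted p = 0.0415, 0.0185, 0.00165 and 0.0248). Acadm, Acads, Hadha, Hadhb, Hadh and Decr1 had differences between -0.14 and 0.09 and were not called (adjusted p = 0.455 to 0.796). For Acadl every vehicle library was above every chow library, yet the difference of 0.35 ± 0.13 was not called (adjusted p = 0.0632). Voom called Acadl higher (0.35, adjusted p = 0.0481).

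How far these genes fell with the diet depended on the scaling between libraries. The deposited values are scaled so that most genes centre near 0, and scaled to total assigned reads the all-gene median became 0.25 in place of -0.04, and 84.1% of called genes were higher in place of 50%. Under that scaling 6035 of all 13737 tested genes were called. Of the members, 7 were called higher (Cpt1a, Crat, Acad12, Acadl, Acadm, Hadha and Hadhb) and 6 lower (Acadsb, Acad8, Ivd, Hsd17b10, Acsm1 and Acsm5). Acadl stood at 0.74 (adjusted p = 0.000592) and Hadhb at 0.48 (adjusted p = 0.0486). All 15 called as lower in the deposited values kept a negative sign. Acadm and Hadha turned to 0.34 and 0.29 and were called higher (adjusted p = 0.0276 and 0.0361). Acads, Acad9, Acad10, Hadh, Eci2 and Decr1 also turned positive, at 0.10 to 0.32, and were not called, so that 13 members were above 0 in place of 5. Relative to the median of all genes, the median of the members was -0.40 in the deposited values, -0.29 when scaled to total reads and -0.06 with quantile normalization. Quantile normalization called 5721 of all tested genes, 44.3% of them higher. It called 4 members higher and 11 lower, with 11 members above 0, and turned Acaa2 to 0.13 (adjusted p = 0.589). Acadl was among those called higher (0.74, adjusted p = 0.00196). The 326E minus vehicle values moved little: 16 members were called higher under total reads and 17 under quantile normalization, the 15 among them. In that comparison 1517 and 1899 of all tested genes were called under these scalings, 38.5% and 51.4% of them higher.

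**Figure D4:**
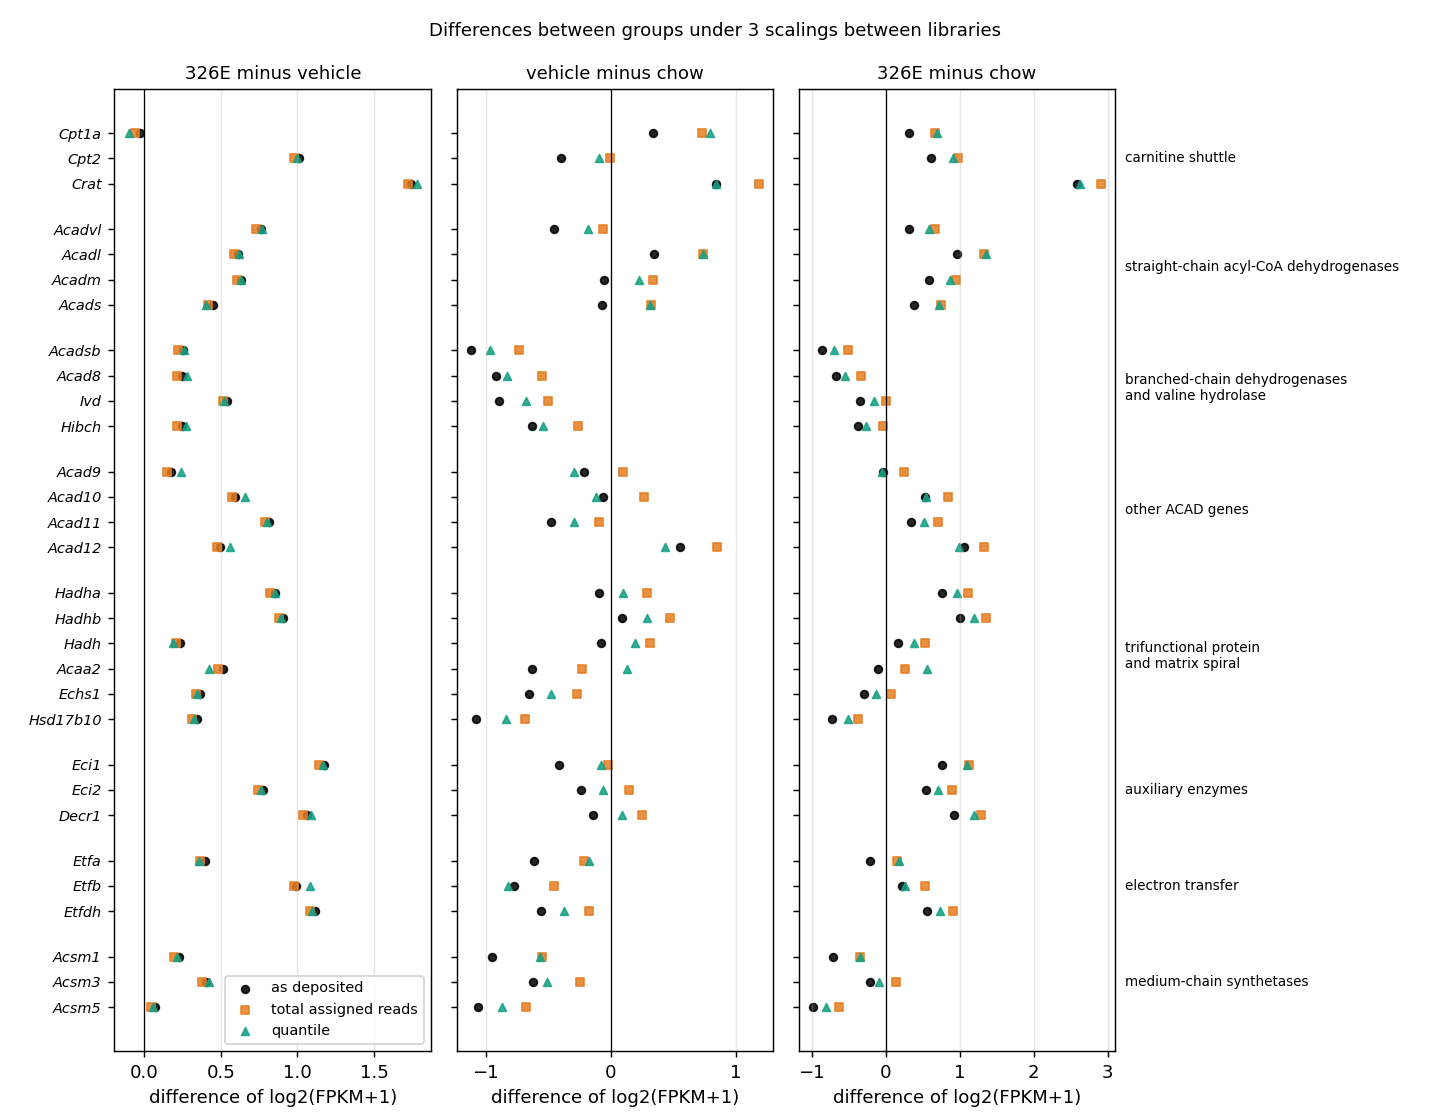
Differences of log2(FPKM+1) for the 30 tested members with values as deposited (black circles), scaled to total assigned reads (orange squares) and quantile normalized (green triangles). Each panel has its own axis range. The 3 symbols nearly coincide in 326E minus vehicle and spread apart in both comparisons with chow.

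Single libraries also decided some diet calls. Cpt1a lost its call without vehicle replicate 1 (0.29, adjusted p = 0.0793) and without chow replicate 1 or 2 (0.33 and 0.31, adjusted p = 0.0808 and 0.0665). In the deposited values vehicle replicate 2 was the lowest of its group for most members. Without it, Acadvl, Acaa2, Eci1 and Acsm3 were not called (-0.34, -0.49, -0.34 and -0.58, adjusted p = 0.132, 0.0614, 0.0824 and 0.0693). These 4 were also not called without chow replicate 1 (-0.44, -0.58, -0.39 and -0.58, adjusted p = 0.101, 0.0631, 0.0809 and 0.0733) or chow replicate 3 (-0.40, -0.60, -0.35 and -0.58, adjusted p = 0.119, 0.0555, 0.0844 and 0.0701). Acadvl lost its call without vehicle replicate 3 (-0.44, adjusted p = 0.0933) and 326E replicate 2 (-0.45, adjusted p = 0.0609), and Acsm3 without vehicle replicate 1 (-0.52, adjusted p = 0.0805). Acad9 passed as lower without vehicle replicate 1 (-0.32, adjusted p = 0.0447), Cpt2 without chow replicate 2 (-0.58, adjusted p = 0.0136), and Acadl as higher without 326E replicate 1 (0.35, adjusted p = 0.0371).

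In 326E against chow livers, 13 members were called higher and 5 lower, where 14.4% of all tested genes were called higher and 12.5% lower. In 15 members every 326E library was above every chow library and in 8 below, where 22.4% and 22.6% of all tested genes separated that way. This comparison and the preceding ones share libraries, and each is given by its own values. Crat stood highest above chow, by 2.59 ± 0.17 (adjusted p = 5.55e-05), a mean 6.82 times that of chow. Acad12, Hadhb, Acadl and Decr1 followed, at 1.05 ± 0.13, 1.0 ± 0.19, 0.96 ± 0.13 and 0.93 ± 0.14 (adjusted p = 0.00066, 0.00543, 0.00113 and 0.00171). Eci1, Hadha, Cpt2, Acadm, Etfdh, Eci2, Acad10 and Acad11 were called at 0.34 to 0.76. The members called lower were Acsm5, Acadsb, Hsd17b10, Acsm1 and Acad8, at -0.98 ± 0.17, -0.86 ± 0.15, -0.73 ± 0.13, -0.72 ± 0.16 and -0.67 ± 0.14 (adjusted p = 0.00339, 0.0039, 0.0035, 0.0104 and 0.00742). With total reads the all-gene median became 0.24 in place of -0.02, and 86.9% of called genes were higher in place of 53.5%. Of all 13737 tested genes 4547 were then called. Of the members, 17 were called higher, the 13 among them, and 3 lower (Acadsb, Hsd17b10 and Acsm5). Cpt1a, Acadvl, Acads and Hadh were added, at 0.67, 0.67, 0.74 and 0.52 (adjusted p = 0.00103, 0.00459, 0.00664 and 0.0178). Quantile normalization called 3167 of all tested genes, 52.2% of them higher. It called 16 members higher, with Cpt1a, Acadvl and Acads added, and 4 lower, without Acsm1. Without 326E replicates 2 or 3 or chow replicates 1 or 2, Cpt2 (0.43 to 0.64, adjusted p = 0.063 to 0.0821) and Acad11 (0.28 to 0.35, adjusted p = 0.0674 to 0.0726) lost their calls. Without 326E replicate 3, Ivd and Hibch passed as lower (-0.48 and -0.53, adjusted p = 0.0265 and 0.0139).

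Ratios of members within a library do not change when all its values are multiplied by the same factor, but quantile normalization can change them. The 4 ratios, from the deposited values, were chosen after the values were seen. Cpt2 over Cpt1a, the inner against the outer carnitine palmitoyltransferase, was 0.725, 0.763 and 0.810 in 326E livers, 0.366, 0.391 and 0.352 in vehicle livers and 0.647, 0.498 and 0.734 in chow livers. Vehicle lay below both other groups, and chow replicate 3 reached the range of 326E. Etfdh over Etfa was 0.374, 0.335 and 0.347 in 326E livers, 0.227, 0.211 and 0.193 in vehicle livers and 0.202, 0.201 and 0.210 in chow livers. It was raised in 326E livers alone, with vehicle and chow overlapping. Acadl over Ivd, a long-chain against a leucine-pathway dehydrogenase, was 5.23, 6.55 and 5.27 in 326E livers, 5.30, 5.77 and 5.23 in vehicle livers and 2.32, 2.18 and 2.27 in chow livers. Here both diet groups overlapped and lay above chow.

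**Figure D5:**
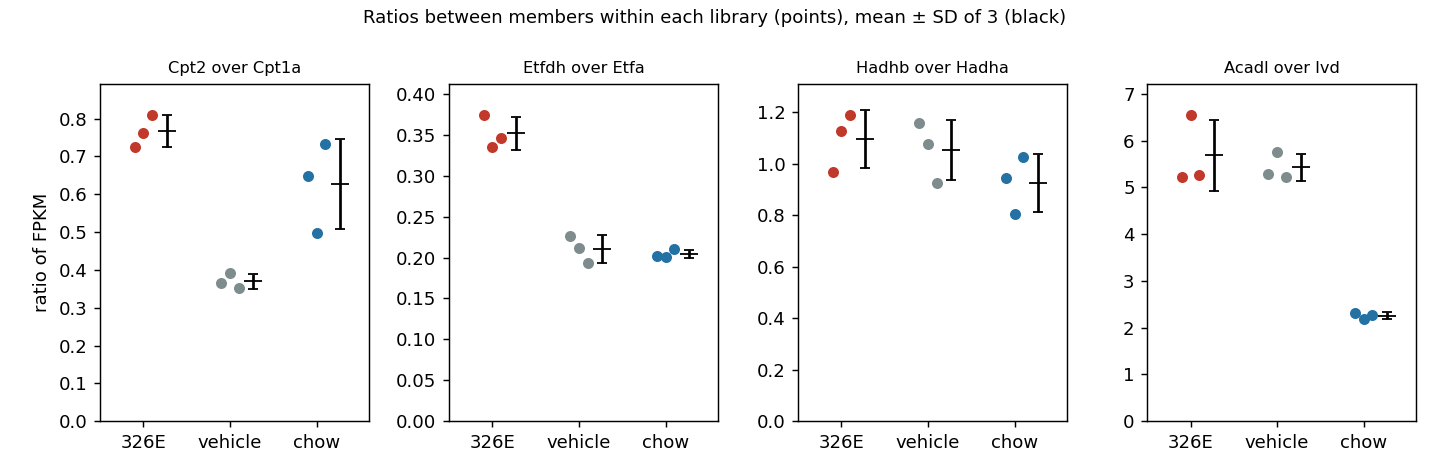
Ratios of FPKM between pairs of members in each library (points) with the mean and SD of 3 libraries (black), axes from 0. Cpt2 over Cpt1a is lowest in vehicle livers, Etfdh over Etfa is highest in 326E livers, Hadhb over Hadha overlaps between 326E and vehicle, and Acadl over Ivd is lowest in chow livers.

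Genes around the pathway were followed in lists. Of 8 tested genes of carnitine supply and acyl entry, 5 rose with 326E and 0 fell, with 6 higher and 0 lower by voom and the same at an unadjusted p under 0.05. Slc25a20, the carrier that exchanges acylcarnitine for carnitine, had 32.5 ± 3.48 FPKM in 326E, 19.5 ± 3.0 FPKM in vehicle and 18.3 ± 2.20 FPKM in chow livers (SD, n = 3 each) and rose by 0.71 ± 0.14 (adjusted p = 0.014). Acsl1, a long-chain acyl-CoA synthetase, rose by 1.41 ± 0.31, Crot, the peroxisomal carnitine octanoyltransferase, by 0.96 ± 0.20 and Acsl5 by 0.94 ± 0.12 (adjusted p = 0.0214, 0.0182 and 0.0034). Among 12 genes that control entry or transcription, 4 rose and 1 fell. Acacb, the acetyl-CoA carboxylase isoform whose malonyl-CoA inhibits Cpt1, rose by 1.33 ± 0.30 and Acaca, the cytosolic isoform, by 0.97 ± 0.10 (adjusted p = 0.023 and 0.00155). Mlycd, which breaks malonyl-CoA down, rose by 0.72 ± 0.09 (adjusted p = 0.00233), and Foxa2, a hepatocyte transcription factor, by 0.87 ± 0.24 (adjusted p = 0.0484). Ppargc1a, a coactivator of oxidative genes, fell by 0.64 ± 0.18 to 2.33 ± 0.33 FPKM in 326E livers, against 4.25 ± 0.97 FPKM in vehicle livers (adjusted p = 0.049). Ppara itself was not called, at 48.3 ± 5.28 FPKM in 326E, 37.2 ± 9.93 FPKM in vehicle and 49.4 ± 14.4 FPKM in chow livers (0.40 ± 0.24 against vehicle, adjusted p = 0.326).

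Of 29 tested genes for other mitochondrial acyl-CoA enzymes, 10 rose with 326E and 0 fell by limma, with 10 and 0 by voom and 15 and 1 at an unadjusted p under 0.05. Acot2, a matrix acyl-CoA thioesterase with close paralogs, stood at 100.6 ± 27.1 FPKM in 326E, 16.9 ± 4.98 FPKM in vehicle and 2.20 ± 0.66 FPKM in chow livers (SD, n = 3 each), and rose by 2.51 ± 0.26 (adjusted p = 0.00149). Hsdl2 and Acss3 rose by 1.02 ± 0.13 and 0.87 ± 0.16 (adjusted p = 0.00341 and 0.0133). Of 6 tested genes of riboflavin and FAD supply, Slc52a2, a riboflavin transporter, and Flad1, which makes FAD, rose by 0.59 ± 0.08 and 0.40 ± 0.09 (adjusted p = 0.00477 and 0.0242). Of 23 general mitochondrial genes, such as citrate synthase, porins, import proteins and respiratory subunits, 1 rose and 0 fell, with 1 and 0 by voom and 7 and 3 at an unadjusted p under 0.05. Of these 23, 16 had a difference above 0. For 10 every 326E library was above every vehicle library and for 2 below, against 14.8% and 18.2% of all tested genes. Their median was 0.17 in that comparison, against 0.53 for the members. In vehicle against chow it was -0.31, and 1 rose and 11 fell, where 20.8% of all tested genes were called higher and 20.8% lower.

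Markers of other cell types moved with the groups. Between 326E and vehicle, 7 of 10 macrophage markers and 5 of 9 stellate cell markers fell and 0 rose in either list. Of all tested genes 6.50% were called lower and 4.96% higher in that comparison. By voom, and at an unadjusted p under 0.05, 9 macrophage and 5 stellate cell markers were lower and 0 higher. Macrophage markers summed to 541 to 955 FPKM in 326E, 1006 to 1544 FPKM in vehicle and 166 to 181 FPKM in chow livers. Lyz2 was the largest part of that sum in every library. Stellate cell markers summed to 156 to 184 FPKM in 326E, 241 to 353 FPKM in vehicle and 49.2 to 66.7 FPKM in chow livers. Of 11 hepatocyte markers, 0 were called between 326E and vehicle (1 higher and 0 lower both by voom and at an unadjusted p under 0.05). Between vehicle and chow 5 fell, 0 rose and 6 were not called, where 20.8% of all tested genes were called lower and 20.8% higher. Cholangiocyte markers, mostly Spp1, summed to 79.8 to 137 FPKM in 326E, 112 to 325 FPKM in vehicle and 31.5 to 50.04 FPKM in chow livers. Endothelial markers summed to 36.4 to 45.8, 30.8 to 37.7 and 34.4 to 35.5 FPKM in the same groups. Adipocyte markers, mostly Plin4 and Cfd, with Lep and Ucp1 at 0 in every library, summed to 3.55 to 8.54, 2.53 to 4.38 and 0.297 to 2.12 FPKM. In whole liver, fewer cells of a type and less RNA per cell cannot be told apart, and the part of cell composition in the members' values was not tested.

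Promoter windows were matched for 27 members, 28 windows of 300 bases from RefSeq on GRCm38.p6, and not for Cpt1b, Crat, Acad9, Acaa2 and Decr1. The motif AGGTCA, which nuclear receptors of the PPAR, RXR and ERR families recognise, was searched on both strands and found in 5 windows of members, 17.9%, and in 16.3% of all windows. A direct repeat of AGGTCA with 1 free base between its copies, the form bound by PPAR with RXR, contains that motif and was in 0 windows of members and in 0.0396% of all windows. The 5 matches are shown because they span members that were called with 326E and members that were not. Each is printed 5′ to 3′ on the strand of its gene with up to 10 bases on either side, and capitals mark AGGTCA or its reverse complement.
Acadm (chr3:153944877-153944893): gTGACCTtcgggctccg
Acadvl (chr11:70015500-70015525): ggatcaccctAGGTCAggtagaatac
Echs1 (chr7:140116489-140116514): cagcccgctcAGGTCAcgggtccacc
Cpt1a (chr19:3323197-3323222): gtttccttacTGACCTcctccccgca
Acsm1 (chr7:119617695-119617720): cactgttttcTGACCTcttgactaaa
Acadm and Acadvl were called higher with 326E, and Echs1, Cpt1a and Acsm1 were not called. The Acsm1 match lies inside the gene as counted, which starts at position 119607026 on the plus strand, and not ahead of that start. A match is a run of letters in these windows and says nothing about binding elsewhere.

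Levels between members are comparable only on the gene lengths in the table. For 29 of 32 members these equal the union of all annotated exons in GENCODE vM21, and the table's length was 0.96 to 5.32 times that of the principal transcript. The largest factors were for Echs1, Hibch, Hadhb, Eci2 and Etfdh, at 5.32, 3.31, 3.22, 3.17 and 3.16, so FPKM places these genes lower than a transcript length would. Comparisons of a gene between groups are not touched by this.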

How the data were processed

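Poly(A) RNA from mouse liver was sequenced in 9 libraries, 3 each for 326E, vehicle and chow. HISAT2 and featureCounts were used with mm10, per the submitters' processing notes; versions, annotation release and strand setting are not given in the sources used here. The authors deposited FPKM for 54532 genes, with gene lengths. FPKM times length gave whole reads, to within 0.01, for 100% of values. The library size behind each FPKM column was a median-of-ratios size, 0.828 to 1.19 times the assigned reads, so the deposited values are already scaled between libraries. For a gene of 2 kb, 1 read was worth 0.0246 to 0.0455 FPKM.

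The test was limma-trend (limma 3.58.1, R 4.3.3) on log2(FPKM+1), fitted to the 9 libraries together with 6 residual degrees of freedom, for the genes that reached 0.5 FPKM in 3 or more libraries. Benjamini-Hochberg adjustment ran over all tested genes of a comparison. The fit was tested on simulated data. Tables and figures used Python 3.11.15, pandas 2.3.3, numpy 2.4.6 and matplotlib 3.10.9. GENCODE vM21 gave exon overlaps and RefSeq the promoter windows.

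The alternatives changed the pseudocount (0.1 or 5), the filter (none, or a mean of 1 FPKM), the scaling (total assigned reads or quantile), the variance model (no trend, or voom on whole reads) or the libraries (those of the comparison, or all but 1), or added a replicate block. Named genes were all members, with values per library for members called with 326E and for those that define a step. From each list came up to 3 genes called with 326E in each direction, by size, and Ppara and Slc25a20; some genes that this rule names are not reported here. Mlycd was added after its values were seen. Members and lists were chosen with earlier results of these data known.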

Additional observations from a re-analysis of the deposited data

How the results depend on the processing

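The number of members called higher for 326E against vehicle, 15, was 15 to 17 in the fits of all libraries with another pseudocount, scaling, variance model or a mean filter and 13 with no filter or with only the libraries of the comparison, and 8 to 14 with each library left out. The number called lower stayed at 0. All tested genes called in this comparison, 1574, numbered 1030 with no filter, 1037 with a replicate block, 1899 with quantile normalization, 1860 with voom and 659 to 1623 with each library left out. In vehicle against chow, members called higher moved from 3 to 7 and lower from 15 to 6 when scaled to total assigned reads, where Acadm (0.34) and Hadha (0.29) turned positive and were called. Of all tested genes 6035 were called under that scaling, 84.1% of them higher. Members above 0 went from 5 to 13 with total reads and to 11 with quantile normalization, where Acaa2 turned to 0.13. In 326E against chow, members called lower moved from 5 to 3 with total reads, where 86.9% of all called genes were higher. All genes called in that comparison moved from 3688 to between 2401 and 3717 with each library left out. Deviations from the group means correlated at -0.244 to 0.0236 for same-numbered libraries and at -0.181 to 0.193 for differently numbered ones. Deviations within a group are tied by the group mean, so these values cannot decide whether the numbers pair libraries. The replicate block called 15 members for 326E against vehicle. Under the block Cpt1a and Acadvl were not called in vehicle against chow (adjusted p = 0.0511 and 0.0502), and Hibch was called lower in 326E against chow (-0.38, adjusted p = 0.0456). The cause of lost calls was not tested, apart from fewer samples in the fits with a library left out. Cpt1b and Acsm2, with at most 9 and 48 reads in a library, are limited by depth.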
